A study of Mus musculus with 10 samples.

Results

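The Hedgehog genes examined here were the 9 core genes of the pathway: the ligand genes Dhh, Shh and Ihh, the receptor genes Ptch1 and Smo, the transcription factor genes Gli1, Gli2 and Gli3, and the ligand-binding inhibitor gene Hhip. They were taken by name from the 46517 genes of the count tables, and all 9 were found. Of the 9, 8 had a read in at least 1 library and 5 (Ptch1, Smo, Gli1, Gli2 and Gli3) had enough reads to enter the tests across genes. RNA came from malignant peripheral nerve sheath tumours (MPNST), sarcomas of the Schwann cell lineage, grown in mice as allografts. The labels letter the 5 allograft models A to E, and from every model 1 library was made of sorted GFP+ tumour cells and 1 of sorted GFP- tumour cells, 10 libraries in all. GFP+ cells express the CGD transgene, whose name the labels do not expand, and GFP- cells of the same model do not. The sources used here do not give what drives the transgene, the tumours' genotypes, the animals' ages or whether a model stands for 1 animal, so p-values measure the spread between these 5 pairs.

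Hedgehog ligands are secreted, lipid-modified proteins that bind the receptor Patched (Ptch1). Unbound Patched holds the membrane protein Smoothened (Smo) inactive, and ligand binding frees Smoothened to act in the primary cilium, where Gli2 and Gli3 are turned from repressors into activators of transcription. Gli1, Ptch1 and Hhip are themselves targets, so their transcripts are commonly read as output of the pathway, and Ptch1 and Hhip feed back by binding ligand. In peripheral nerve, Desert hedgehog (Dhh) is the ligand of Schwann cells, and the cells of the nerve sheath around them respond to it.

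Depth ran from 15978673 to 22082207 gene reads per library, and levels are given as CPM, a gene's reads per 1000000 of these. At this depth 3 reads, used here as the limit that a count of 0 allows, corresponded to 0.136 to 0.188 CPM. The fibroblast marker list was high in every library (summed, 17047 to 30122 CPM with GFP and 17210 to 32012 CPM without). The 18 Schwann lineage markers summed to 158 to 624 CPM with GFP and 137 to 321 CPM without, and were higher in GFP+ cells in 5 of 5 pairs. The fibroblast list and the pericyte and smooth muscle list were each higher in GFP+ cells in 1 of 5 pairs, and the fibroblast marker Pdgfra was lower in 5 of 5. Sox10, the defining factor of the Schwann cell lineage, had 0 to 9 reads in the 4 libraries of models A and E. By this marker alone the Schwann cell lineage was hardly seen there. Of the 18 Schwann lineage markers, 7 were above 1 CPM in every library, those of models A and E included. Endothelial markers summed to at most 4.56 CPM and leukocyte markers to at most 7.95 CPM in any library. Xist and the Y-linked Ddx3y are sex-linked RNAs, named after their values were seen. Models B, C and E held Xist at 523 to 1049 CPM and Ddx3y at most at 1.35 CPM. In model A, Xist stood at 0.111 and 0.0514 CPM and Ddx3y at 41.7 and 60.7 CPM. Comparisons between models cross this difference, whose part in them was not tested. The GFP+ library of model D stood apart, with Xist at 102.6 CPM together with Ddx3y at 42.2 CPM. Its GFP- partner held 2.82 and 64.1 CPM. For Dhh, Hhip, Gli1, Gli2 and Gli3, results of the tests that rest on model D are therefore given with and without it. Differences of other single pathway genes are given with all 5 pairs only.

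Dhh was the only member whose fitted difference between GFP+ and GFP- cells passed the threshold in any fit run here, and Ptch1 and Hhip are the genes through which GLI factors feed back. The 250 bases before the start that RefSeq gives for these 3 genes in the build GRCm38.p6 (the mm10 assembly of the counts) are shown for that reason, from 5′ to 3′ on the gene's strand. The Ptch1 window lies before a RefSeq start that is inside the longer gene span of GENCODE given with its levels.
Dhh (chr15:98898541-98898790, minus strand): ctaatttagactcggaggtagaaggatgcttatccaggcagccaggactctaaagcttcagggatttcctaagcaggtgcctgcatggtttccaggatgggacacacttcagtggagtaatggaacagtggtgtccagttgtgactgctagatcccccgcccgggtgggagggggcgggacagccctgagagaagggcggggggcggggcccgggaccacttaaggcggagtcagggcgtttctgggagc
Ptch1 (chr13:63565736-63565985, minus strand): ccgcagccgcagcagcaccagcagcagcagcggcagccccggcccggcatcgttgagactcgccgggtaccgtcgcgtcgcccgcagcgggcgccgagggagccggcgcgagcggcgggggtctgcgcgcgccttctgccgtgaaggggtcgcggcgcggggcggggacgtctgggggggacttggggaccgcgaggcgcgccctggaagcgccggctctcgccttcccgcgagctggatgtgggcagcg
Hhip (chr8:80058009-80058258, minus strand): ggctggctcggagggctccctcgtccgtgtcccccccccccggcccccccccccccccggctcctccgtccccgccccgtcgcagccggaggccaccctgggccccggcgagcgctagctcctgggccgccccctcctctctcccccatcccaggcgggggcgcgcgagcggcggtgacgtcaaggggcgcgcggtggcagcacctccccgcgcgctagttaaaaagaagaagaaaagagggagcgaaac
Promoter entries matched 7 of the 9 genes, all but Shh and Gli1. The GLI consensus GACCACCCA, searched on both strands, was in none of the 7 windows, and 0.225% of all 32851 windows of this length held it. The SOX core, searched as ACAAAG or ACAATG on both strands, was also in none of the 7, and in 25.2% of all windows. These letters are thus not in these windows, which says nothing about binding elsewhere. The Dhh window was 59.6% G and C, against 78.4% for Ptch1 and 76.0% for Hhip.

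Among the ligands, Dhh (ENSMUSG00000023000, mm10 chromosome 15, 98891152 to 98898540) was read mainly in the GFP+ cells of models C and D. In GFP+ cells of models A to E, Dhh stood at 0.0556, 0.479, 2.99, 10.04 and 0.0965 CPM. In GFP- cells of the same models it stood at 0.0514, 0, 0.220, 0.814 and 0 CPM. Models A and E had 0 to 2 Dhh reads in each library, so both populations lay under the 3-read limit there. Of all 268 Dhh reads, 250 came from GFP+ cells and 73.1% from model D. In model C the GFP+ level was 13.6 times the GFP- level (55 against 4 reads, exact 95% interval 5.01 to 51.6), and in model D 12.3 times (183 against 13 reads, 7.04 to 23.6). In model B, with 9 reads against 0, the ratio was 3.53 when 3 reads stand for the empty library, and its exact lower 95% limit was 2.32. These intervals cover counting error only, and in sorted bulk cells more Dhh-expressing cells and more Dhh RNA per cell cannot be told apart.

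Dhh lay under the filter of the main fit. In the fit without that filter, edgeR's quasi-likelihood test with the pair as a block gave Dhh a log2 difference of 3.52 (SE 0.49) and an adjusted p of 0.0178, with a higher CPM in 5 of 5 pairs, of which A and E rest on 1 or 2 reads. In this fit 47 of 25762 genes were called (0.182%), 37 higher and 10 lower in GFP+ cells. The call was not stable, and of 12 alternatives to this fit 6 kept it. With a filter built on the full design the adjusted p of Dhh by edgeR was 0.183, without pair D 0.251, without pair C 0.0560, without pair E 0.0628, and without the block 0.994, while DESeq2 gave 0.000242. Sox10 moved in the same direction in models B, C and D (17.1, 52.6 and 112 CPM in GFP+ against 1.63, 7.65 and 3.69 CPM in GFP- cells), as did Erbb3, a neuregulin receptor of Schwann cells (5.17, 13.7 and 64.9 against 0.906, 4.62 and 2.07 CPM). The part of Schwann lineage or fibroblast content in the Dhh difference was not tested.

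Shh (ENSMUSG00000002633, chromosome 5, 28456815 to 28467256), the ligand best known from limb and neural tube patterning, had 0 reads in all 10 libraries, which allows at most 0.188 CPM in the shallowest of them. Ihh (ENSMUSG00000006538, chromosome 1, 74945315 to 74951672), the ligand of growing cartilage, had 1 to 8 reads per library and 41 in all, with 0.0542 to 0.426 CPM. It was higher in GFP+ cells in 2 of 5 pairs (8 against 6 reads in B and 5 against 1 in E) and lower in 3. The ranges of the 2 populations overlapped. Without the filter its log2 difference was 0.02 (SE 0.63, adjusted p = 0.999 by edgeR), a difference this depth could hardly show.

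**Figure D1:**
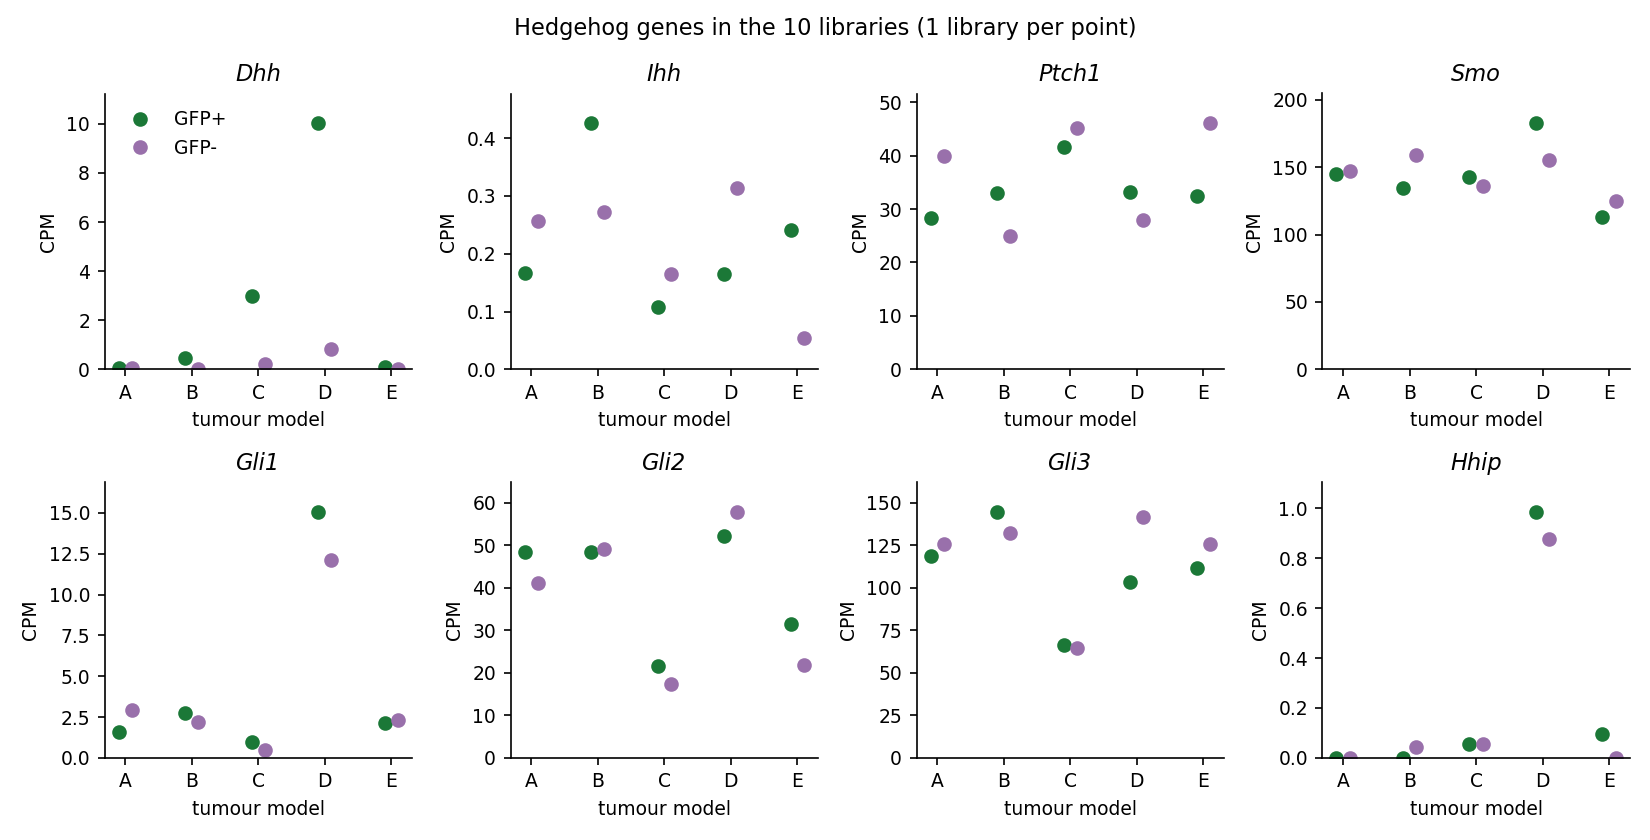
Level of each Hedgehog gene in CPM (vertical axis, from 0) by tumour model (horizontal axis), with 1 point per library, green for GFP+ and purple for GFP- cells; Shh, with no read, is left out. Dhh peaks at 10.04 CPM in GFP+ cells of model D, whereas Gli1 (15.1 and 12.1 CPM) and Hhip (0.987 and 0.876 CPM) are high in both populations of model D.

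The receptor genes were read in every library at levels that varied little. Ptch1 (ENSMUSG00000021466, chromosome 13, 63508328 to 63573598), the ligand receptor and a pathway target, stood at 28.3, 33.0, 41.5, 33.2 and 32.4 CPM in GFP+ cells of models A to E and at 39.8, 25.0, 45.2, 28.04 and 46.1 CPM in GFP- cells. GFP+ cells were lower in models A, C and E and higher in B and D, and the 2 populations overlapped. The log2 difference was -0.13 (SE 0.15, 95% interval -0.47 to 0.21, adjusted p = 0.843 by edgeR). Across all 10 libraries the highest level was 1.85 times the lowest.

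Smo (ENSMUSG00000001761, chromosome 6, 29735503 to 29761365), the signal transducer, stood at 145, 134, 143, 183 and 113 CPM in GFP+ cells of models A to E and at 147, 159, 136, 155 and 125 CPM in GFP- cells. It was the steadiest member, the highest library being 1.61 times the lowest, and both libraries of model E lay below all others. Its log2 difference was -0.05 (SE 0.09, 95% interval -0.26 to 0.15, adjusted p = 0.913 by edgeR), and 0.01 without pair B.

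Hhip (ENSMUSG00000064325, chromosome 8, 79965851 to 80058006), which encodes a membrane protein that sequesters ligand, was read in model D and hardly elsewhere. It had 18 reads in GFP+ and 14 in GFP- cells of model D (0.987 and 0.876 CPM), and 0 to 2 reads in each of the other 8 libraries. Model D thus gave 86.5% of its 37 reads. Within model D the GFP+ level was 1.13 times the GFP- level (exact 95% interval 0.529 to 2.45, counting error only). Without the filter, edgeR gave Hhip an adjusted p of 0.00682 between tumour models, where 31.9% of genes were called, and 0.865 without model D. Its log2 difference between the populations in that fit was 0.20 (SE 0.88), and 0.39 without pair D (SE 1.76).

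Of the transcription factor genes, Gli1 (ENSMUSG00000025407, chromosome 10, 127329882 to 127341974), the activator that the pathway itself induces, differed most between models. It stood at 1.61, 2.72, 0.978, 15.1 and 2.12 CPM in GFP+ cells of models A to E and at 2.93, 2.17, 0.495, 12.1 and 2.33 CPM in GFP- cells. Both libraries of model D lay above the other 8 and both of model C below them. Model D held 61.1% of all 768 Gli1 reads. Between the populations the log2 difference was 0.04 (SE 0.26, 95% interval -0.55 to 0.64, adjusted p = 0.981 by edgeR), with 3 pairs higher and 2 lower, and leaving out B, C or D turned the estimate to -0.02, -0.10 or -0.02. The interval leaves room for a change of up to 0.64 on the log2 scale.

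Gli2 (ENSMUSG00000048402, chromosome 1, 118834132 to 119053619), the main activator downstream of Smo, stood at 48.3, 48.4, 21.7, 52.1 and 31.4 CPM in GFP+ cells of models A to E and at 41.0, 49.0, 17.4, 57.9 and 21.9 CPM in GFP- cells. Models C and E were low in both populations, and both libraries of model D lay above all others. The log2 difference was 0.14 (SE 0.12, 95% interval -0.13 to 0.42, adjusted p = 0.764 by edgeR), with GFP+ cells higher in A, C and E. Without pair D the log2 difference of Gli2 was 0.23. Gli3 (ENSMUSG00000021318, chromosome 13, 15463235 to 15730026), which acts chiefly as a repressor when no ligand is present, stood at 119, 145, 66.2, 104 and 112 CPM in GFP+ cells and at 126, 132, 64.4, 141 and 126 CPM in GFP- cells. Both libraries of model C held about the same low level and lay below the other 8. The log2 difference of Gli3 was -0.14 (SE 0.10, 95% interval -0.36 to 0.09, adjusted p = 0.714 by edgeR). The pair furthest from 0 was D, at -0.53, and without pair D the log2 difference of Gli3 was -0.046.

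**Figure D2:**
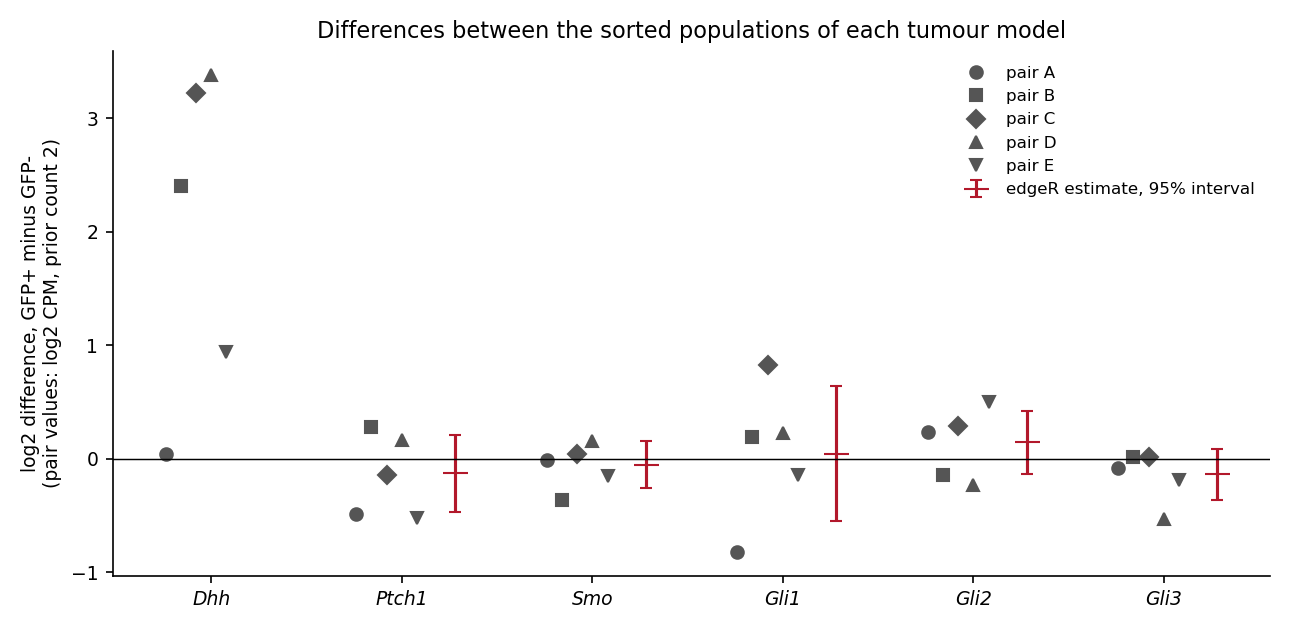
Log2 difference between GFP+ and GFP- cells (vertical axis) for each pair (grey symbols, log2 CPM values, prior count 2) of Dhh and the 5 tested genes, with the edgeR estimate and its 95% interval in red for the tested genes. The pair values of Dhh reach 3.39 in pair D and 3.22 in pair C and lie at 0.04 in pair A, while the intervals of the 5 tested genes include 0.

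None of the 5 tested members was called between GFP+ and GFP- cells. In edgeR's quasi-likelihood fit, blocked on the pair, 0 of 13986 genes passed at an adjusted p under 0.05 (0%), and 1257 had an unadjusted p under 0.05 (8.99%), among which were 0 of the 5 members. DESeq2 called 195 genes at the same filter and again 0 of the 5. None of the 5 was higher or lower in 5 of 5 pairs, which 9.88% of all tested genes were. The median log2 difference of the 5 was -0.05, against -0.0028 over all genes tested.

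Between tumour models, the test asked whether the 5 models differed by more than the scatter left after model and population. Each model has 2 libraries, 1 of each population, so this compares these 5 models only. Gli1 ranged over a log2 of 4.19 (18.2-fold) between its lowest and highest model (adjusted p = 0.00156 by edgeR), Gli2 over 1.496 (adjusted p = 0.00351) and Gli3 over 1.07 (adjusted p = 0.00735). Ptch1 (0.59, adjusted p = 0.178) and Smo (0.47, adjusted p = 0.137) were not called. The 3 of 5 members called stand beside 54.7% of all tested genes, so their number is no feature of the pathway. Without model D the Gli1 range was 1.71 (adjusted p = 0.0738 by edgeR) and the Gli2 range 1.33 (adjusted p = 0.00591 by edgeR). Without model C the Gli3 range was 0.19 (adjusted p = 0.635 by edgeR), and without model D it was 1.07 (adjusted p = 0.00454 by edgeR). For Dhh and Hhip, tested without the filter, the adjusted p was 3.749e-05 and 0.00682 by edgeR. The log2 range of Dhh was 6.57, and without model D it was 4.80 (adjusted p = 0.00497 by edgeR). Dhh in models A and E lay under the 3-read limit, so the size of either range depends on how the fit treats counts near 0.

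Both libraries of model D lay above all others for Gli1 and Gli2 (2 of 5 tested members) and for the untested Hhip, against 4.45% of all tested genes. The Gli2 margin was narrow, with 52.1 CPM in GFP+ cells of model D and 49.0 CPM in GFP- cells of model B. Ptch1, a target like Gli1 and Hhip, was not high in model D, at 33.2 and 28.04 CPM against 25.0 to 46.1 CPM elsewhere. For 44.6% of tested genes some 1 of the 5 models had both its libraries above all others. Both libraries of model C lay below all others for Gli1, Gli2 and Gli3 (3 of 5), against 14.5% of all tested genes. Pericyte and smooth muscle markers were also high in model D, at 248.8 and 255.1 CPM summed against 37.6 to 175 CPM in the other libraries, with 1 of 7 markers above all others in both. Fibroblast markers summed to 23625 and 32012 CPM there, against 17047 to 30122 CPM elsewhere, and Schwann lineage markers to 624 and 281 CPM, against 137 to 445 CPM. Their part in the Gli1 and Hhip levels was not tested.

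Per kilobase of merged exon, the scale on which genes can be compared, the order of the levels was Smo, Gli3, Gli2, Ptch1, Gli1, Dhh, Ihh, Hhip and Shh. Smo stood at 25.6 ± 3.42 CPM per kilobase (SD, n = 10 libraries), Gli3 at 11.8 ± 2.94, Gli2 at 5.66 ± 2.13 and Ptch1 at 2.49 ± 0.526. Of neighbours in this order, only Smo and Gli3 had ranges that were apart. Gli3 exceeded Gli2 in 10 of 10 libraries, Gli2 exceeded Ptch1 in 8 and Ptch1 exceeded Gli1 in 8. Gli1 stood at 0.852 ± 1.01 CPM per kilobase, and it exceeded Ptch1 in both libraries of model D, at up to 3.02. Dhh, at 0.335 ± 0.714 on this scale, exceeded Ihh in only 3 of 10 libraries, so the order of the low members rests on few reads.

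**Figure D3:**
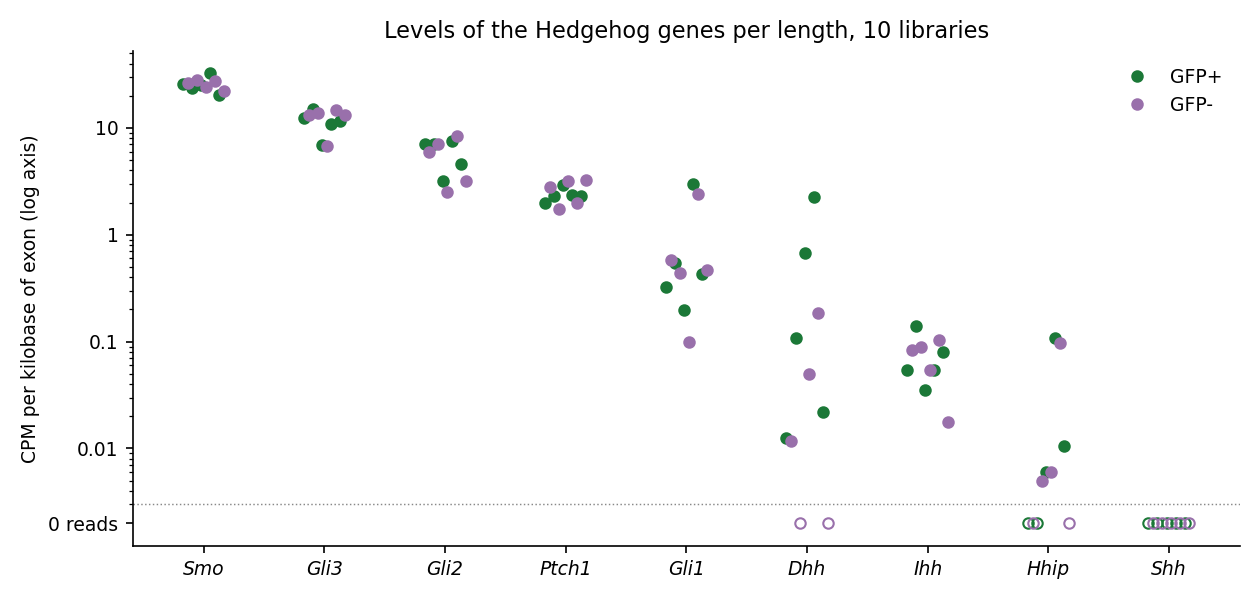
Level of each Hedgehog gene in CPM per kilobase of exon (vertical axis, logarithmic) in the 10 libraries, green for GFP+ and purple for GFP- cells, with libraries at 0 reads drawn as open circles on a separate line under the axis scale. Smo has the highest level in every library (20.1 to 32.5), and Gli1, Dhh and Hhip spread most.

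Other genes of the pathway were followed in 5 lists. Most genes described from a list were picked by smallest p between the populations or by highest mean CPM. For genes picked by p, agreement across pairs follows in part from that choice. Of all tested genes, 9.88% were higher or lower in 5 of 5 pairs. Ligand processing and release genes included Hhat, which attaches palmitate to the ligand, and Disp1, which releases it. In this list 3 of 10 tested genes had a positive and 7 a negative difference (median log2 -0.11), and 0 were called. Of all genes tested, 49.3% had a positive difference. Disp2, a relative of Disp1, had the smallest p and was higher in 5 of 5 pairs, at 1.06 ± 0.613 against 0.373 ± 0.196 CPM (SD, n = 5 each), with a log2 difference of 1.42 (SE 0.38, adjusted p = 0.385 by edgeR). The glypican gene Gpc3, a cell-surface proteoglycan that competes for ligand, differed by -0.65 (SE 0.29, adjusted p = 0.569 by edgeR) and spanned 14.3 to 325 CPM. The heparan sulphate genes Ndst1 and Ext1 had the highest mean CPM of the list, not scaled for gene length. Their GFP+ means were 245 and 263 CPM and their GFP- means 248 and 229 CPM.

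The co-receptor genes Gas1, Cdon and Boc encode membrane proteins that help Patched bind ligand, and each had a negative difference. Gas1, the most abundant, ranged from 388 to 1116 CPM and was lower in GFP+ cells in 4 of 5 pairs, with a log2 difference of -0.43 (SE 0.18, adjusted p = 0.539 by edgeR). Cdon was also lower in 4 of 5 pairs, at -0.28 (SE 0.11, adjusted p = 0.510 by edgeR). Boc, at -0.66 (SE 0.37, adjusted p = 0.641 by edgeR), was lower in models B (22.8 against 94.6 CPM) and D (64.6 against 181 CPM) and slightly higher in the other 3. Ptchd1, which encodes a Patched-related protein, was higher in 4 of 5 pairs, at 0.52 (SE 0.17, adjusted p = 0.460 by edgeR). Over the 6 tested genes of the list, 3 had a positive and 3 a negative difference (median 0.04), 0 were called, and the median was -0.31 without pair C and -0.28 without pair D.

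Among intracellular regulators, such as Sufu, which binds the GLI proteins, and the protein kinase A genes, 15 of 28 tested genes had a positive and 13 a negative difference (median log2 0.02), and 0 were called. Arrb1, an arrestin that brings Smo into the cilium, was higher in GFP+ cells in 5 of 5 pairs, at 34.5 ± 12.2 against 22.3 ± 5.28 CPM (SD, n = 5 each), with a log2 difference of 0.55 (SE 0.14, adjusted p = 0.379 by edgeR). Evc, which binds Smo at the base of the cilium, was lower in 5 of 5 pairs, at 74.2 ± 10.6 against 101.1 ± 25.6 CPM, with -0.45 (SE 0.12, adjusted p = 0.393 by edgeR). Iqce, a partner of Evc, was lower in 5 of 5 pairs too, at -0.18 (SE 0.08, adjusted p = 0.547 by edgeR). Arrb1, Evc and Iqce were picked as having the smallest p of this list, so their agreement across pairs is no separate evidence. Gnas, which encodes the stimulatory G protein alpha subunit, had the highest mean CPM of this list, not scaled for gene length. It ranged from 737 to 1110 CPM, with a log2 difference of -0.01.

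Genes of transport in the primary cilium, the organelle in which Smo acts, had a positive difference in 9 of 26 cases and a negative one in 17 (median log2 -0.09). The share with a positive difference was 34.6%, beside 49.3% of all genes tested, and 0 of the 26 were called. Arl13b, a small GTPase of the ciliary membrane, was picked as having the smallest p of this list. It was lower in 5 of 5 pairs, at -0.24 (SE 0.09, adjusted p = 0.508 by edgeR). The motor subunit gene Kif3a held 51.6 to 70.6 CPM over the 10 libraries. Dync2h1, the motor of return transport, ranged from 26.8 to 170 CPM, with its highest value in GFP+ cells of model D.

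Of genes often listed as Hedgehog targets, 14 of 28 tested had a positive and 14 a negative difference (median log2 0.02), and 0 were called. Foxf2, a forkhead factor of mesenchyme, was higher in 5 of 5 pairs, at 1.21 ± 0.457 against 0.523 ± 0.167 CPM (SD, n = 5 each) and a log2 difference of 1.16 (SE 0.29, adjusted p = 0.379 by edgeR). Nr2f2, a nuclear receptor, was lower in 5 of 5 pairs, at -0.28 (SE 0.08, adjusted p = 0.417 by edgeR). The cell-cycle factor Foxm1 was higher in 5 of 5 pairs, at 0.39 (SE 0.13, adjusted p = 0.461 by edgeR). Tgfb2 was lower in 4 of 5, at -0.55 (SE 0.15, adjusted p = 0.393 by edgeR). Foxf2, Nr2f2, Foxm1 and Tgfb2 were picked as having the smallest p of this list, so their agreement across pairs is no separate evidence.

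Between tumour models, 20 of the 28 target genes were called (71.4%), beside 54.7% of all genes tested. The share called was 70% for ligand processing, 66.7% for co-receptors, 64.3% for intracellular regulators and 57.7% for cilium transport. Both libraries of model D lay above all others for 3 of the 28, Ccnd2, Mycn and Igf2, which are named for this reason after their values were seen (10.7%, beside 4.45% of all genes tested). This share was 11.5% for cilium transport, 10% for ligand processing, 3.57% for intracellular regulators and 0% for co-receptors, so it was not particular to the targets. Igf2, an insulin-like growth factor gene, stood at 4122 and 1260 CPM in GFP+ and GFP- cells of model D, against 225 to 1129 CPM elsewhere. Ccnd2, a G1 cyclin gene, stood at 400.1 and 220 CPM there, against 83.6 to 185 CPM elsewhere. Mycn held 5.48 and 3.07 CPM in model D and at most 2.88 CPM in the other libraries. Each of the 3 is also known to respond to other pathways.

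**Figure D4:**
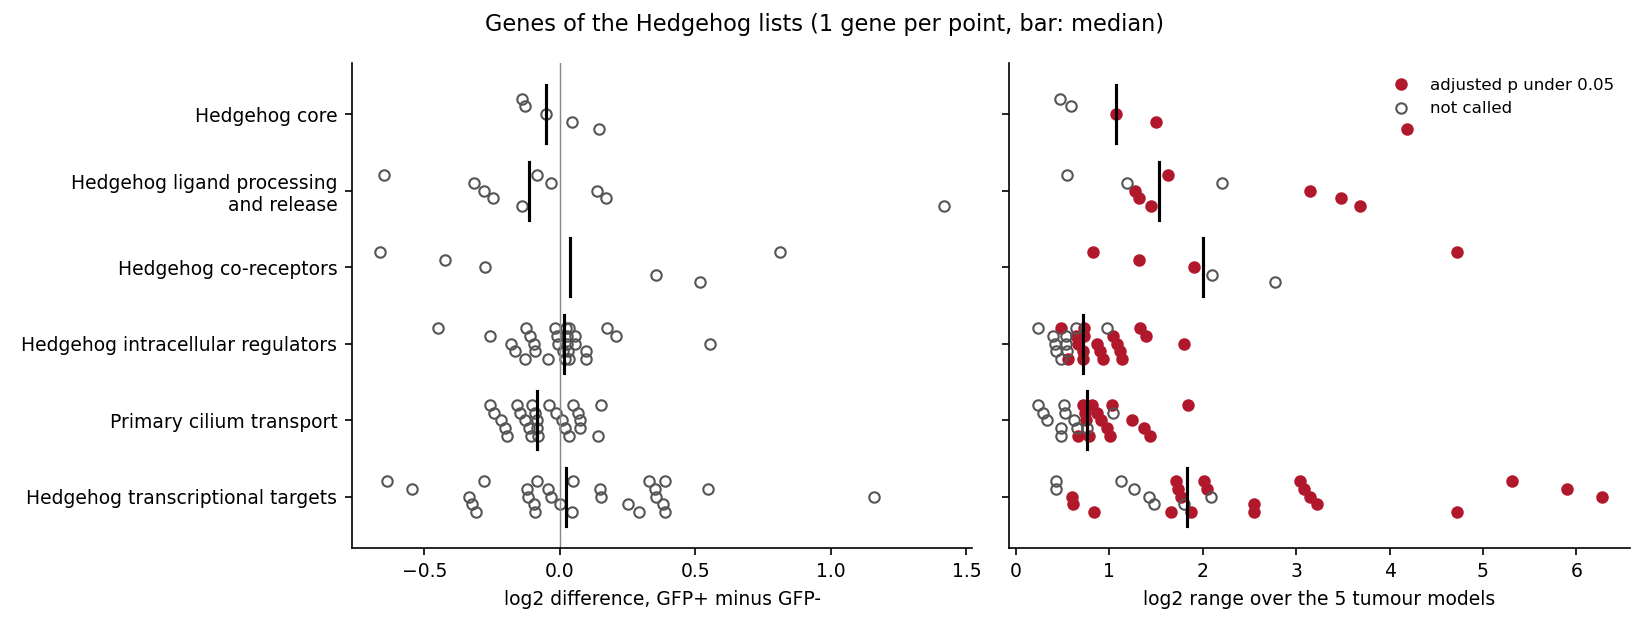
Log2 difference between GFP+ and GFP- cells (left) and log2 range over the 5 tumour models (right) for each tested gene of the 9 core genes and the 5 pathway lists, with 1 point per gene, filled in red where the adjusted p is under 0.05 by edgeR, and a bar at the median. No gene is filled on the left, and on the right 3 of the 5 core genes and 20 of the 28 target genes are.

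The genes whose log2 CPM over the 10 libraries was most like that of a member were taken by Pearson's r, as a description over libraries that come in pairs from 5 models. For Gli1 they were Pik3ip1 (r = 0.95), Rnf150 (0.95), Moxd1 (0.95), Rmdn2 (0.93) and Armcx2 (0.93). Of these, Pik3ip1 ranked 1 by Spearman's rho too (0.99), while Rnf150 and Moxd1 had a rho of 0.77. For Gli2 they were Akna, Rcn3, Arap3, Fmnl3 and Negr1 (r from 0.976 to 0.982). Gli3 was most like Rad9b, Tcf7l2, Ifi44, Ifit3b and Adgra3 (r from 0.967 to 0.975), Ptch1 like Sdhd, Gtpbp4, C530044C16Rik, Gm10221 and Ppp4r3b (0.945 to 0.968), and Smo like Lpcat3, Vhl, Slc44a2, Gm26621 and BC067074 (0.897 to 0.919). With Spearman's rho in place of Pearson's r, 3 of the 5 genes were also among the closest 5 for Gli2, 2 for Ptch1 (with a tie at the fifth place), 1 each for Gli1 and Smo, and 0 for Gli3.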

How the data were processed

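The authors deposited unnormalized counts of reads for each gene. Per the submitters' processing notes, the aligner was STAR 2.4.2.8 and the build mm10; the sources used here do not give annotation, library kit or strand. Per the labels, wild-type and dead cells were gated out before sorting. Of the 3 count columns, the last, counted on 1 strand, entered the tests. The 4 summary lines (21.3% to 24.3% of reads) were left out. Multiply mapped reads (5.99% to 9.74%) are in no gene's count. GENCODE vM21 gave symbols (46005 of 46517 identifiers), positions and merged exon lengths.

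Tests were edgeR 4.0.16 quasi-likelihood (R 4.3.3) with TMM scaling and filterByExpr by population (13986 genes), a model of tumour letter plus population, two-sided, and Benjamini-Hochberg adjustment over all genes tested, called under 0.05. Letters pair libraries of 1 tumour model; the 2 libraries of a pair deviated together (r 0.628 to 0.867). The same fit tested the model letter. Pair values use log2 CPM at prior count 2. Alternatives used DESeq2 1.42.0 and limma 3.58.1, other scalings and filters, no block, unstranded counts and each pair left out. A full-design filter, and the other alternatives combined with no filter for the low members, were chosen after seeing the data. Simulated counts were used to test the scripts' fits.

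The members, lists, tests and rules were chosen with earlier results of these data known. Genes named were the 9 members, up to 4 of each pathway list by smallest p and by level, the 5 genes most like each tested member, and Sox10, Erbb3, Pdgfra, Ptprc and Pecam1 as markers; others are named after their values were seen. Pdgfra stood at 659 to 2470 CPM, Ptprc at 0 to 0.453 and Pecam1 at 0.0965 to 1.31 CPM. The perineurial markers, with Lypd2 at 0 reads throughout, summed to 373 to 1306 CPM. 1 gene of the co-receptor list is not reported here by name.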

Additional observations from a re-analysis of the deposited data

Results flagged for a closer look

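Within each population, 1 library lay apart from the other 4 for 6 of the 16 sets of 5 values tested, by Dixon's test at 95%. Its nominal 5% of sets by chance holds for normally distributed values. The share over all genes tested is not given here, and the test between tumour models called 54.7% of them. Model D was the high library for Gli1 in GFP+ (15.1 CPM, the next library 2.72) and GFP- cells (12.1 CPM, the next 2.93), for Hhip in GFP+ (0.987 CPM, the next 0.0965) and GFP- cells (0.876 CPM, the next 0.0550), and for Dhh in GFP- cells (0.814 CPM, the next 0.220). Model C was the low library for Gli3 in GFP- cells (64.4 CPM, the next 126). The sets share their libraries, so they are not independent of one another.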

How the results depend on the processing

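The 5 tested members stayed uncalled between GFP+ and GFP- cells under all 14 alternatives. The count of genes called was 0 except for 47 without a filter on low counts and 195 with DESeq2. The sign of the small differences was not stable: leaving out 1 pair gave -0.108 to 0.0145 for Smo, -0.10 to 0.27 for Gli1, -0.14 to 0.44 for Hhip and -0.32 to 0.29 for Ihh (the last 2 without the filter). The Dhh difference of the fit without a filter was 3.41 to 3.73 with 1 pair left out. It was 3.60 with no replicate block, 3.04 with limma voom and 3.54 with the full-design filter; in these 3 fits, and without pair C, D or E, it was not called. The median of the co-receptor list was -0.28 with at least 1 CPM in 5 libraries, 0.36 with the full-design filter and -0.31 to 0.079 with 1 pair left out. These filters change which of its genes are tested.

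Between tumour models, leaving out 1 model gave 4038 (without C) to 7545 called genes. It gave a log2 range of 1.71 to 4.21 for Gli1, 0.19 to 1.09 for Gli3 and 3.24 to 7.13 for Hhip, the lowest being without model D, C and D. Hhip had 0 reads in both libraries of model A, so the size of its range is no measured ratio. Without model A the Hhip range was 4.90. The range of Gli2 stayed called under all 14. The order of the members per kilobase was the same with the longest transcript as length and with unstranded counts. Depth limits Shh, Ihh, Hhip and, in models A and E, Dhh.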

Other observations

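Dhh reads are given relative to Sox10 reads in the 6 libraries with at least 30 Sox10 reads, as a description with no test between libraries. For each 100 Sox10 reads there were 2.804 Dhh reads in GFP+ cells of model B (exact 95% interval 1.27 to 5.39), 5.68 in model C (4.25 to 7.46) and 8.95 in model D (7.65 to 10.4). In GFP- cells of model D there were 22.03 (11.1 to 40.6, from 13 Dhh and 59 Sox10 reads), in those of model C 2.88 (0.773 to 7.53), and in those of model B 0, from 36 Sox10 reads (0 to 10.8). The intervals cover counting error only.

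Gli2 was lowest in C and E (model means of 19.5 and 26.7 CPM), where Ptch1 was highest (43.4 and 39.3 CPM), and Gli2 was highest in D and B (55.0 and 48.7 CPM), where Ptch1 was lowest (30.6 and 29.0 CPM). The Ptch1 differences between models did not pass the test.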
